A study of Homo sapiens with 6 samples.

Results

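The 41 genes described here build and run the DNA replication machinery of S phase, and they were read in cytokine-treated and vehicle-treated cells of the human beta cell line EndoC-BH5. Members were taken by symbol from a fixed list and matched 42 of 60611 rows of the gene count table, because POLA2 stands in 2 rows. The cytokine group held 3 libraries of EndoC-BH5 cells given interferon gamma and interleukin 1b, and the vehicle group held 3 libraries of the same line given vehicle alone. All 6 libraries were labelled WT and endocrine pancreas. Neither the cytokine doses nor the length of exposure is stated in the labels. The series design compares 3 batches with cytokines and 3 with vehicle and names no pairing. Nothing in the labels says that replicates came from separate cultures, so the p-values cover only the spread among these libraries, which may be technical. As background, EndoC-BH5 is known as a line from human fetal pancreas whose immortalising transgenes are excised after expansion, and both groups share this history.

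Before S phase, the origin recognition complex (ORC), CDC6 and CDT1 load the MCM helicase, a ring of MCM2 to MCM7, onto DNA. CDC45 and the GINS complex then turn the ring into the active helicase, and polymerases, the PCNA clamp, its loader and nucleotide-making enzymes carry out synthesis. E2F transcription factors drive many of these genes as cells pass from G1 into S, and mature beta cells are known to replicate little.

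In cytokine-treated cells the replication genes were lower almost throughout, by modest amounts. Of 41 rows that passed the filter on low counts, 34 fell (33 of 40 symbols), 3 rose and 4 did not pass the test. The rows that fell were 1.13 to 1.73 times lower, with a median of 1.33, and 28 of the 34 were less than 1.5 times lower. The 3 genes that rose were MCM2, GINS3 and CCND1, and the 4 that did not pass were ORC1, ORC2, ORC6 and CDC25A. CCND2 had too few counts to be tested. In bulk libraries, fewer cells in S phase and less of each RNA per cell cannot be told apart.

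These calls came from edgeR's quasi-likelihood test at an adjusted p of 0.05 over all 17863 genes tested, and levels are CPM, with each library's size adjusted by its TMM factor. The same test called 57.1% of all genes, against 90.2% of the member rows. It called 28.8% of all genes lower, against 82.9% of the member rows, and 28.3% of all genes higher, against 7.32% of the member rows. Among genes with a mean of at least 3 CPM over the 6 libraries, 30.6% were lower, against 85% of the 40 member rows at that level. All 3 cytokine libraries lay below all 3 vehicle libraries in 75.6% of member rows and in 30.7% of all genes. All 3 lay above in 3 member rows and in 30.3% of all genes. The median log2 change was -0.38 over member rows and -0.02 over all genes tested. Scaling by library size alone shifted the median of all genes to -0.22 and that of the members to -0.58, with 37 member rows lower and the same count of 3 higher.

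Counts totalled 13689972 to 16175364 in the cytokine libraries and 5871481 to 15894082 in the vehicle libraries, with vehicle replicate 1 the shallowest. The tested member rows summed to 1316, 1280 and 1354 CPM in cytokine libraries, against 1657, 1612 and 1718 CPM in vehicle libraries. The beta cell label was met: INS averaged 3632 CPM in cytokine cells and 4000 CPM in vehicle cells. All 6 beta cell markers were found, and their summed level ran from 12090 to 12680 CPM in cytokine libraries and from 8672 to 9315 CPM in vehicle libraries, with 2 markers higher and 4 lower. IAPP carried the higher sum, averaging 8217 CPM in cytokine cells and 3986 CPM in vehicle cells, while INS, SLC30A8, PDX1 and NKX2-2 fell. Summed fibroblast markers were 12.8 to 14.0 CPM in cytokine libraries and 3.21 to 4.38 CPM in vehicle libraries, and 1 of 5 markers (PDGFRB) passed the test while DCN, LUM, COL1A1 and COL1A2 averaged under 1 CPM. Summed leukocyte markers were 21.2 to 22.5 CPM in cytokine libraries and 5.77 to 6.19 CPM in vehicle libraries, and 1 of 6 (CD68) passed the test while PTPRC, CD3E, LYZ and CSF1R averaged under 1 CPM. Summed alpha cell markers were 61.3 to 71.2 CPM in cytokine libraries and 72.5 to 77.1 CPM in vehicle libraries (1 of 4 higher, 2 lower), and ductal markers 137.1 to 147.4 CPM in cytokine libraries and 152.6 to 172.3 CPM in vehicle libraries (1 of 4 higher, 1 lower). Delta cell markers, mostly SST, were 567.0 to 605.4 CPM in cytokine libraries and 538.9 to 605.9 CPM in vehicle libraries, and none of the 3 passed the test. The acinar marker CPA1 did not pass the test. The other acinar, endothelial and PP cell markers had too few counts to be tested, with PRSS1 at 0 in all libraries. The part of these markers in the fall of the replication genes was not tested.

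The start regions of 4 subunit genes are shown because 2 of them rose while their complex partners fell. MCM2 and GINS3 are the subunits that rose, and MCM6 and GINS2 are partners that fell, all read from RefSeq on GRCh38.p14 in windows placed around the start that RefSeq annotates. GENCODE 29, from which gene spans are given here, places the starts of GINS3 and GINS2 further upstream, so those windows lie inside its spans. Capitals mark matches to an E2F-type motif, searched on both strands as TTTCCCGC or TTTCGCGC or TTTGCCGC or TTTGGCGC. The MCM2 window is chr3:127598161-127598460 on the plus strand, with 2 matches that overlap on opposite strands. The MCM6 window is chr2:135876394-135876693 on the minus strand and holds 4 matches in 2 overlapping pairs. The GINS3 window is chr16:58392221-58392520 on the plus strand and the GINS2 window is chr16:85688905-85689204 on the minus strand, each with 1 match.
MCM2: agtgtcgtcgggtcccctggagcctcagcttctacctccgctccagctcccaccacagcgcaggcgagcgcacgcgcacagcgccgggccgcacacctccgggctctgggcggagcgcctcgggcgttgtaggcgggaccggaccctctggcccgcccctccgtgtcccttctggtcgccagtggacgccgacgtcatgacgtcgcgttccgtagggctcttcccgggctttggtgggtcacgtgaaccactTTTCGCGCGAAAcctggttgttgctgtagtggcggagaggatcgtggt
MCM6: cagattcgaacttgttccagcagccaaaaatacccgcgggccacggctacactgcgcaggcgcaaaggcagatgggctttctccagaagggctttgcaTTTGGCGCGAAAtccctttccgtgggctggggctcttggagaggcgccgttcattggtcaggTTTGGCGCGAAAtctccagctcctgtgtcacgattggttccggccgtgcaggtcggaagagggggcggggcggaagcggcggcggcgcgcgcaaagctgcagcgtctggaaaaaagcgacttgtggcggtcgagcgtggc
GINS3: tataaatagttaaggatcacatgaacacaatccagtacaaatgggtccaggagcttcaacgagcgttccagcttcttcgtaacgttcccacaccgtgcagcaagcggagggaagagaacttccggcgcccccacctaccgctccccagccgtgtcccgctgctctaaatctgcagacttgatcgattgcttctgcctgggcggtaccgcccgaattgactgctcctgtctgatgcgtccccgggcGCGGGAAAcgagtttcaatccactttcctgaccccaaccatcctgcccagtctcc
GINS2: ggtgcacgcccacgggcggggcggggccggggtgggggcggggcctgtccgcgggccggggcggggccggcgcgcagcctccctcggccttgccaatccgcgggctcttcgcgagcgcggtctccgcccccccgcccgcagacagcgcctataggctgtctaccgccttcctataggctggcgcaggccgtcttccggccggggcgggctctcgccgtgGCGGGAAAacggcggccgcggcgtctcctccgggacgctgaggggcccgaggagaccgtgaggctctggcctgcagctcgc

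The windows shown, of MCM2 and GINS3 that rose and of MCM6 and GINS2 that fell, thus all hold this motif. No window was given for the fallen partners MCM4, MCM5 and GINS4. Windows were given for 35 of the 41 symbols (44 windows), and 19 of those genes (54.3%) held at least 1 match, against 3.99% of 27305 genes with a window. Among members with a window, 16 of 29 that fell held a match, as did both that rose and 1 of 4 that did not pass, CDC25A. The CCAAT box (CCAAT), bound by the factor NF-Y, stood in 60.0% of member genes and 39.7% of all genes. TTTGAA, the core of the element known from cell-cycle genes of G2 and mitosis, stood in 2.86% of member genes and 18.2% of all genes. The interferon-type motifs were rare in both: GAAA followed by any 2 bases and GAAA stood in 2.86% of member genes and 4.38% of all genes, and TTC, any 3 bases and GAA in 5.71% and 9.38%. No interferon-type match lay in the MCM2 or GINS3 window, which says only that these letters are absent there.

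**Figure D1:**
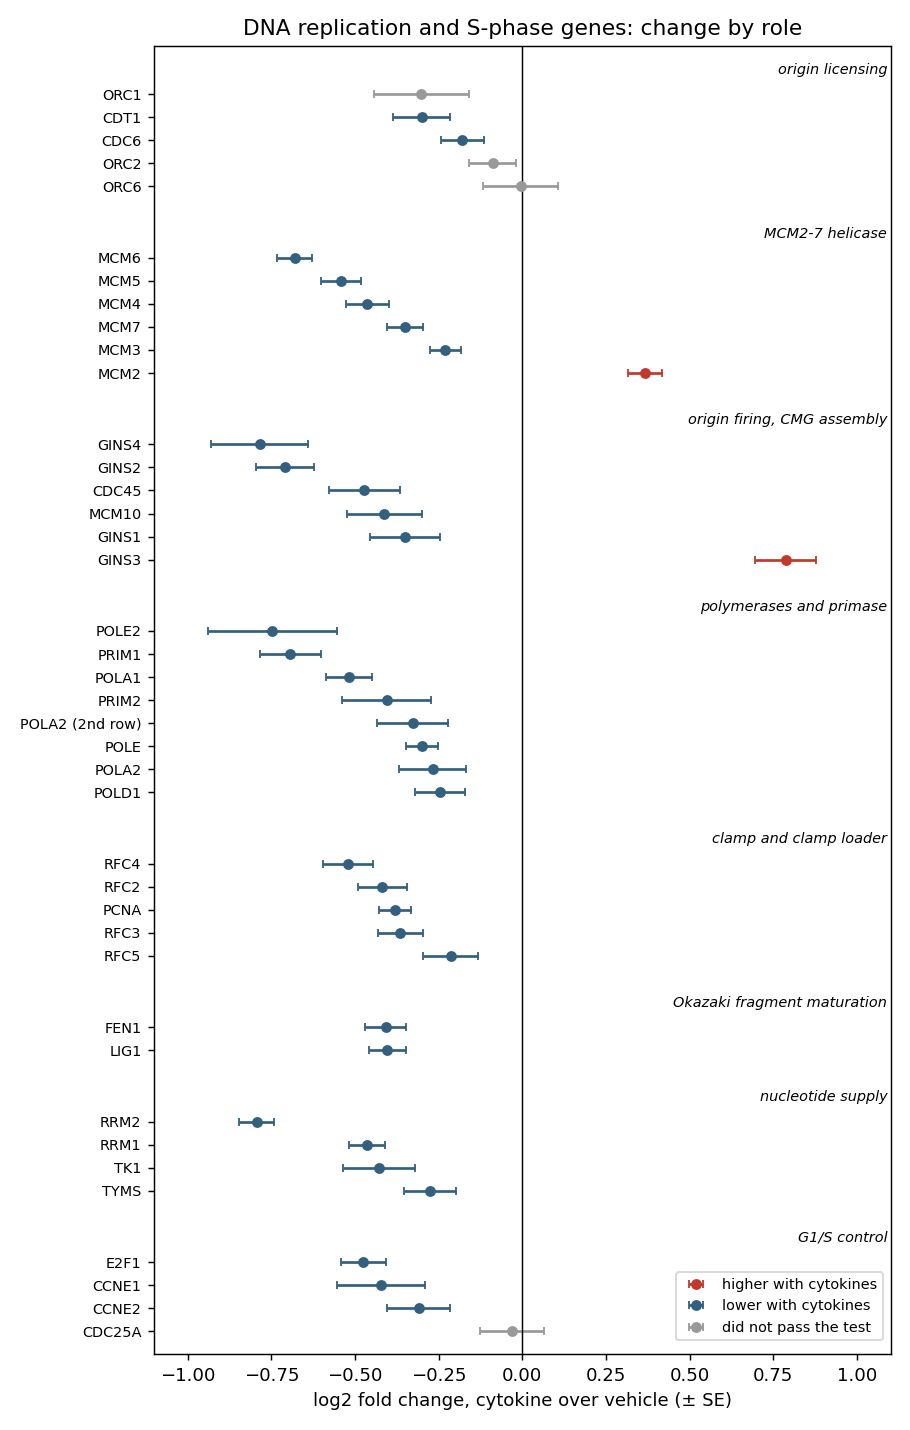
Log2 fold change of cytokine over vehicle (x axis, ± SE) for the member rows grouped by role (y axis), coloured by the result of edgeR's test. CCND1 lies beyond the axis at 3.20 and CCND2 was not tested, so neither is drawn; MCM2 and GINS3 stand to the right of 0 among partners to its left.

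Among the helicase subunits, 5 of 6 fell (83.3%, beside 28.8% of all genes) and MCM2 rose. MCM2 (chromosome 3, 127598223 to 127622436), the subunit known to carry a histone-binding tail, had 116.5, 109.8 and 125.4 CPM in cytokine libraries, against 89.8, 90.5 and 92.1 CPM in vehicle libraries. Every cytokine library was above every vehicle library, a log2 change of 0.37 (SE 0.05, adjusted p = 5.5e-07). With library size alone as the scaling, the MCM2 rise was smaller (log2 change 0.16, adjusted p = 0.0063). MCM6 moved furthest the other way, with 51.8, 52.8 and 52.3 CPM in cytokine libraries, against 84.7, 80.7 and 85.8 CPM in vehicle libraries. The groups were far apart and tight, a log2 change of -0.68 (SE 0.05, adjusted p = 3.9e-12).

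MCM5 had 41.7, 39.3 and 43.6 CPM in cytokine libraries, against 57.6, 59.7 and 62.7 CPM in vehicle libraries (log2 change -0.54, SE 0.06). MCM4 had 67.4, 63.6 and 67.0 CPM in cytokine libraries, against 79.7, 86.7 and 101.8 CPM in vehicle libraries (log2 change -0.46, SE 0.06). Neither gene's groups overlapped, although MCM4 spread more widely among the vehicle libraries. MCM7 and MCM3 fell least, by 0.35 and 0.23 on the log2 scale. MCM7 shares exon bases with AP4M1 on the opposite strand, a gene that also fell (log2 change -0.25).

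Per kilobase of exon, the subunits of the ring were not level in either group. In cytokine cells MCM3, MCM7 and MCM2 led at 29.3 ± 1.04, 28.0 ± 2.43 and 27.4 ± 1.84 CPM per kilobase, followed by MCM4, MCM6 and MCM5 at 14.7 ± 0.473, 14.0 ± 0.12 and 11.4 ± 0.601 (SD, n = 3). In vehicle cells MCM7 and MCM3 led at 35.9 ± 1.26 and 34.4 ± 0.304, followed by MCM6, MCM2, MCM4 and MCM5 at 22.4 ± 0.718, 21.2 ± 0.276, 19.95 ± 2.52 and 16.5 ± 0.703 (SD, n = 3). MCM2 thus stood among the upper subunits with cytokines and among the lower ones with vehicle. Per kilobase, MCM2 had 27.19, 25.61 and 29.27 in cytokine libraries, below MCM3 and MCM7 in each library. MCM3 had 30.09, 28.13 and 29.7 and MCM7 27.32, 26.06 and 30.75 in the same libraries, and these differences were not tested. The difference between log2 CPM of MCM2 and the mean of MCM3 to MCM7 was 0.77, 0.74 and 0.83 in cytokine libraries, against -0.02, -0.01 and -0.07 in vehicle libraries. No library crossed between the groups, and this balance does not depend on the scaling between libraries; it is a description with no test, since the genes that make it were known to have moved.

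**Figure D2:**
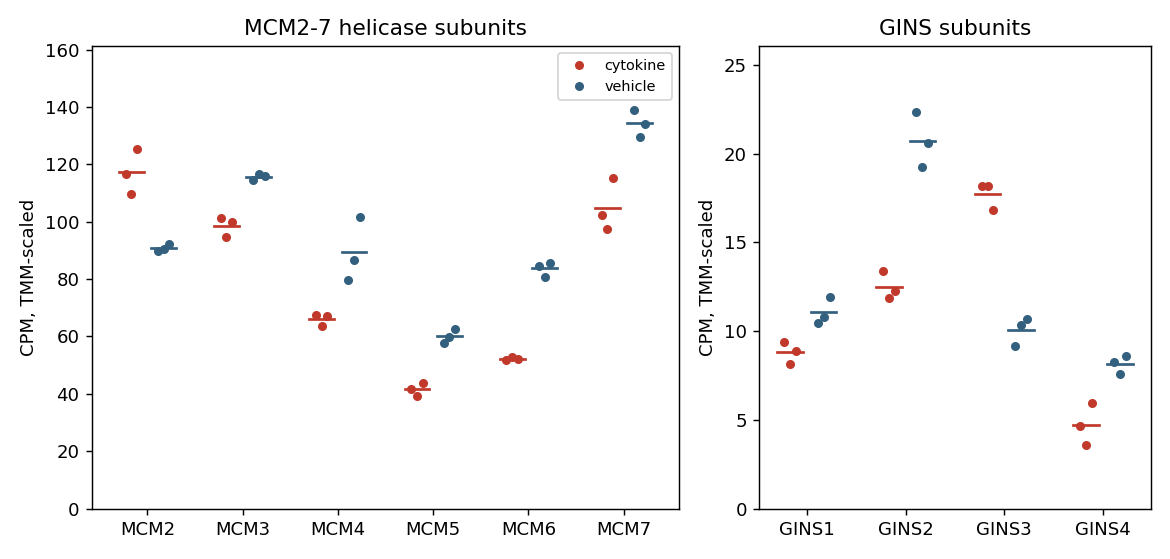
TMM-scaled CPM (y axis) of each helicase subunit and GINS subunit (x axis) per library, with cytokine points left of vehicle points and a line at each group mean. MCM2 and GINS3 are the subunits whose cytokine points lie above their vehicle points.

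A like split stood in the GINS complex, a complex of 4 subunits that joins CDC45 and the MCM ring. GINS3 (chromosome 16, 58295080 to 58406144) had 18.2, 18.2 and 16.8 CPM in cytokine libraries, against 9.19, 10.4 and 10.7 CPM in vehicle libraries. All cytokine libraries were above all vehicle libraries, a log2 change of 0.79 (SE 0.09, adjusted p = 2.5e-08). GINS2 had 13.4, 11.8 and 12.3 CPM in cytokine libraries, against 22.3, 19.2 and 20.6 CPM in vehicle libraries (log2 change -0.71, SE 0.09, adjusted p = 5.8e-08).

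GINS4 had 4.65, 3.61 and 5.92 CPM in cytokine libraries, against 8.24, 7.60 and 8.58 CPM in vehicle libraries (log2 change -0.79, SE 0.14, adjusted p = 3.5e-05). GINS1 fell less, by 0.35 on the log2 scale. Its call was lost without vehicle replicate 3 (adjusted p = 0.082) and with DESeq2 in place of edgeR (adjusted p = 0.072). For all 3 of these partners the groups did not overlap. GINS3 minus the mean log2 CPM of its partners was 1.15 ± 0.21 in cytokine libraries and -0.29 ± 0.14 in vehicle libraries (SD, n = 3), a balance chosen after its values were seen. Per kilobase of exon, GINS3 averaged 7.42 in cytokine cells and 4.21 in vehicle cells, so with cytokines it ranked above GINS2 at 3.83, GINS1 at 2.71 and GINS4 at 0.865. In vehicle cells GINS2 ranked above it at 6.35, with GINS1 at 3.40 and GINS4 at 1.49. The GINS3 span in the annotation used is long, at 111065 bases, and an antisense gene shares 558 exon bases with it at about 1 CPM in both groups.

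CDC45, which pairs with GINS at the helicase, averaged 8.03 ± 0.671 CPM in cytokine cells and 11.3 ± 0.582 CPM in vehicle cells (SD, n = 3; log2 change -0.47, SE 0.11, adjusted p = 0.0004). MCM10, a factor needed to activate the loaded helicase, averaged 8.56 ± 0.695 CPM in cytokine cells and 11.7 ± 1.79 CPM in vehicle cells (log2 change -0.41, SE 0.11, adjusted p = 0.0025). Both fell with no overlap between groups.

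Of 5 origin licensing members, 2 fell (40.0%, beside 28.8% of all genes) and 3 did not pass, though all 5 fitted log2 changes were below 0. With library size alone as the scaling, 4 of the 5 were called lower. The difference from the helicase subunits was not tested. CDC6, the ATPase that helps ORC load the ring, had 33.1, 31.9 and 32.4 CPM in cytokine libraries, against 34.0, 37.2 and 37.8 CPM in vehicle libraries. The groups did not overlap, but the step was small (log2 change -0.18, SE 0.06, adjusted p = 0.018). CDT1, its partner in loading, had 17.6, 16.5 and 20.01 CPM in cytokine libraries, against 20.9, 20.7 and 23.9 CPM in vehicle libraries (log2 change -0.30, SE 0.09, adjusted p = 0.0037). Neither call held without vehicle replicate 3 (adjusted p = 0.13 for CDC6 and 0.10 for CDT1), and CDC6 also missed without cytokine replicate 2 (adjusted p = 0.077) or vehicle replicate 2 (adjusted p = 0.067). CDC6 missed as well with DESeq2 in place of edgeR (adjusted p = 0.12) and in edgeR with no filter on low counts (adjusted p = 0.067).

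Of the ORC subunits, ORC2 had 24.6, 24.1 and 23.4 CPM in cytokine libraries, against 25.7, 25.3 and 25.7 CPM in vehicle libraries. The groups did not overlap, yet the log2 change of -0.09 (SE 0.07) missed the threshold (adjusted p = 0.29). ORC6 had 9.69, 10.03 and 10.8 CPM in cytokine libraries, against 10.8, 8.34 and 11.3 CPM in vehicle libraries, and the groups overlapped (log2 change -0.005, SE 0.11, adjusted p = 0.97). ORC1 had 6.64, 4.70 and 6.14 CPM in cytokine libraries, against 5.70, 7.15 and 7.94 CPM in vehicle libraries (log2 change -0.30, SE 0.14, adjusted p = 0.070). Its groups overlapped through vehicle replicate 1, and it passed the test without that library (adjusted p = 0.034) or without cytokine replicate 1 (adjusted p = 0.041). With library size alone as the scaling, ORC1 and ORC2 were called lower (adjusted p = 0.0031 and 0.00071). The mean log2 CPM of the 3 ORC genes minus that of MCM3 to MCM7 was -2.61 ± 0.05 in cytokine libraries and -2.94 ± 0.06 in vehicle libraries (SD, n = 3), with no overlap; this balance was chosen after its values were seen. Of the other ORC subunits, named after their values were seen, ORC5 fell (log2 change -0.35), while ORC3 and ORC4 did not pass at -0.14 and -0.10.

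**Figure D3:**
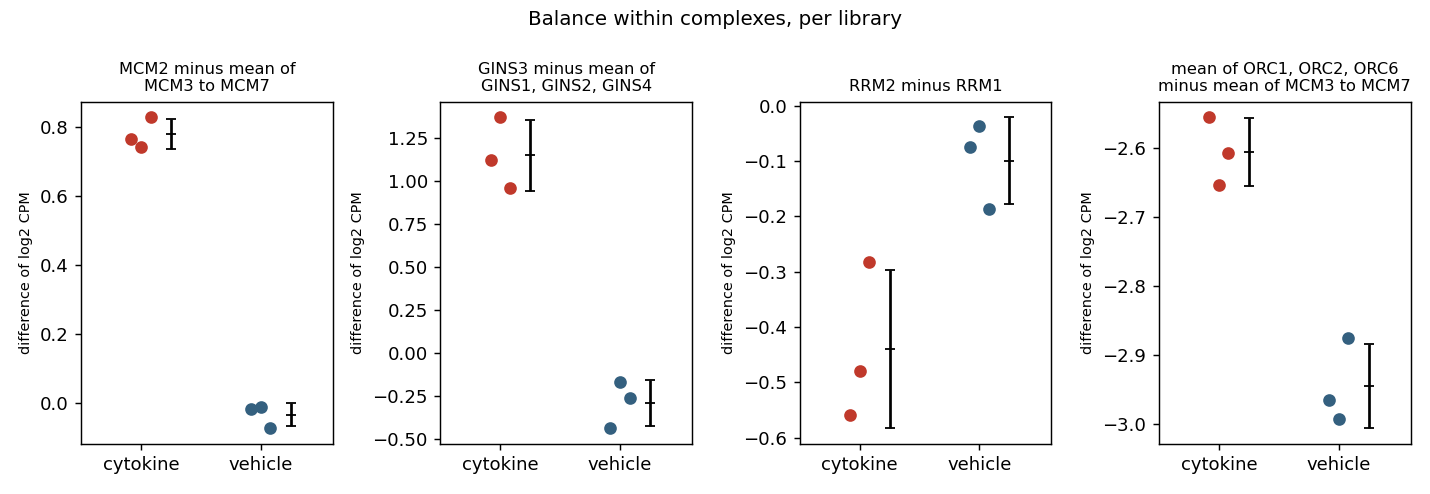
Differences of log2 CPM between subunits (y axis) in each cytokine and vehicle library (points), with group means and SD (bars, n = 3), for 4 balances named above each panel. In these panels the cytokine and vehicle points do not overlap, unlike the balances of PRIM1 to PRIM2 and POLE2 to POLE, which are not drawn; the axes do not start at 0.

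All 8 polymerase and primase rows fell, beside 28.8% of all genes, with POLA2 counted in 2 of these rows. PRIM1, the catalytic primase subunit that starts each strand with RNA, had 11.8, 9.96 and 11.4 CPM in cytokine libraries, against 18.2, 18.9 and 17.2 CPM in vehicle libraries. The groups were well apart (log2 change -0.69, SE 0.09, adjusted p = 2.2e-07). PRIM1 shares 362 exon bases with AC117378.1 on the same strand, which also fell, averaging 50.4 CPM in cytokine cells and 62.3 CPM in vehicle cells, so reads of these genes may not be separable. POLE2, the accessory subunit of leading-strand polymerase epsilon, had 4.05, 1.96 and 2.89 CPM in cytokine libraries, against 4.12, 5.04 and 5.49 CPM in vehicle libraries. Its log2 change of -0.75 carried a wide error (SE 0.19, adjusted p = 0.0016), and cytokine replicate 1 lay just below vehicle replicate 1. The log2 difference of PRIM1 minus PRIM2 was 0.97 ± 0.32 in cytokine libraries and 1.27 ± 0.16 in vehicle libraries, and that of POLE2 minus POLE was -4.75 ± 0.52 in cytokine libraries and -4.27 ± 0.18 in vehicle libraries (SD, n = 3). Both balances overlapped between the groups.

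POLA1, the catalytic subunit of polymerase alpha, averaged 24.6 ± 0.716 CPM in cytokine cells and 34.8 ± 2.07 CPM in vehicle cells (SD, n = 3; log2 change -0.52, SE 0.07). The catalytic subunits of the main synthesis enzymes moved less: POLE averaged 76.3 ± 0.572 CPM in cytokine cells and 93.5 ± 2.47 CPM in vehicle cells, and POLD1 of polymerase delta 30.0 ± 1.66 CPM in cytokine cells and 36.3 ± 4.59 CPM in vehicle cells. Their log2 changes were -0.30 (SE 0.05) and -0.25 (SE 0.07). The POLA2 rows, which share 2012 exon bases on 1 strand and are not independent, changed by -0.27 and -0.33. The row at -0.33 is named AP000944.2 in the annotation used here and shares 1886 exon bases with CDC42EP2 on the same strand. CDC42EP2 also fell (log2 change -0.68), averaging 1.93 CPM in cytokine cells and 2.88 CPM in vehicle cells. Reads of these genes may not be separable. PRIM2, which has a pseudogene copy in the genome, changed by -0.41 (SE 0.13). Without vehicle replicate 3 the POLA2 rows and PRIM2 missed the threshold (adjusted p = 0.23, 0.17 and 0.067). They also missed it without cytokine replicate 1 (adjusted p = 0.092, 0.062 and 0.12). With DESeq2 in place of edgeR they missed it too (adjusted p = 0.18, 0.11 and 0.086). The POLA2 row at -0.27 also missed without cytokine replicate 3 (adjusted p = 0.090) and in edgeR with no filter on low counts (adjusted p = 0.062).

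All 5 clamp and clamp-loader members fell, beside 28.8% of all genes. PCNA, the sliding clamp that tethers polymerases, was the most abundant member per kilobase in both groups and had 93.7, 92.8 and 93.1 CPM in cytokine libraries, against 124.2, 114.2 and 125.6 CPM in vehicle libraries. The cytokine libraries were nearly level with each other and all below the vehicle libraries (log2 change -0.38, SE 0.05, adjusted p = 1.1e-07). The small loader subunits RFC4, RFC2, RFC3 and RFC5 fell by 0.52, 0.42, 0.36 and 0.21 on the log2 scale. RFC5 overlapped between groups through cytokine replicate 2 at 21.1 CPM, and its call was lost without cytokine replicate 1, cytokine replicate 3 or vehicle replicate 3 (adjusted p = 0.13, 0.13 and 0.21). The RFC5 call was also lost with DESeq2 in place of edgeR and in edgeR with no filter on low counts.

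The large loader subunit RFC1, outside the member list, moved the opposite way, averaging 172.8 ± 7.67 CPM in cytokine cells and 94.9 ± 4.57 CPM in vehicle cells (SD, n = 3; log2 change 0.86, SE 0.05, adjusted p = 8.3e-15). DSCC1, part of an alternative loader, averaged 3.40 ± 0.306 CPM in cytokine cells and 6.77 ± 0.357 CPM in vehicle cells (log2 change -0.98, SE 0.14, adjusted p = 1.2e-06). The enzymes that join Okazaki fragments, the flap nuclease FEN1 and the ligase LIG1, fell by nearly the same amount, 0.41 and 0.40 on the log2 scale (SE 0.06 each). LIG1 averaged 49.4 ± 1.08 CPM in cytokine cells and 65.8 ± 3.20 CPM in vehicle cells, and FEN1 47.8 ± 4.20 CPM in cytokine cells and 63.1 ± 2.43 CPM in vehicle cells (SD, n = 3).

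All 4 members that supply deoxynucleotides fell, beside 28.8% of all genes. RRM2, the small subunit of ribonucleotide reductase that is made in S phase, had 52.4, 53.5 and 59.0 CPM in cytokine libraries, against 95.8, 93.0 and 96.9 CPM in vehicle libraries. No cytokine library came near a vehicle library (log2 change -0.79, SE 0.05, adjusted p = 3.1e-13). The large subunit RRM1 had 77.3, 74.6 and 71.7 CPM in cytokine libraries, against 100.9, 95.4 and 110.3 CPM in vehicle libraries (log2 change -0.46, SE 0.05, adjusted p = 2.7e-08). The log2 difference of RRM2 minus RRM1 was -0.56, -0.48 and -0.28 in cytokine libraries, against -0.08, -0.04 and -0.19 in vehicle libraries. The groups did not overlap, and no test was made of this balance. Per kilobase, RRM1 stood above RRM2 in both groups, at 22.2 and 13.5 in cytokine cells and at 30.4 and 23.4 in vehicle cells. The gene length deposited for RRM2, 91027 bases, exceeds the 10722 bases of the annotation used here. KLF11, the tested gene on the same strand within that reach, did not pass the test (log2 change -0.04).

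TK1, the salvage thymidine kinase, averaged 9.12 ± 1.02 CPM in cytokine cells and 12.5 ± 1.43 CPM in vehicle cells (SD, n = 3; log2 change -0.43, SE 0.11, adjusted p = 0.0013). TYMS, which makes thymidylate, averaged 17.7 ± 0.444 CPM in cytokine cells and 21.1 ± 1.23 CPM in vehicle cells (log2 change -0.27, SE 0.08, adjusted p = 0.0035). TYMS missed the threshold without vehicle replicate 3 (adjusted p = 0.051) and with DESeq2 in place of edgeR. It shares 967 exon bases with ENOSF1 on the opposite strand, which fell as well (log2 change -0.30). The sources used here do not state the strand setting of the counting.

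**Figure D4:**
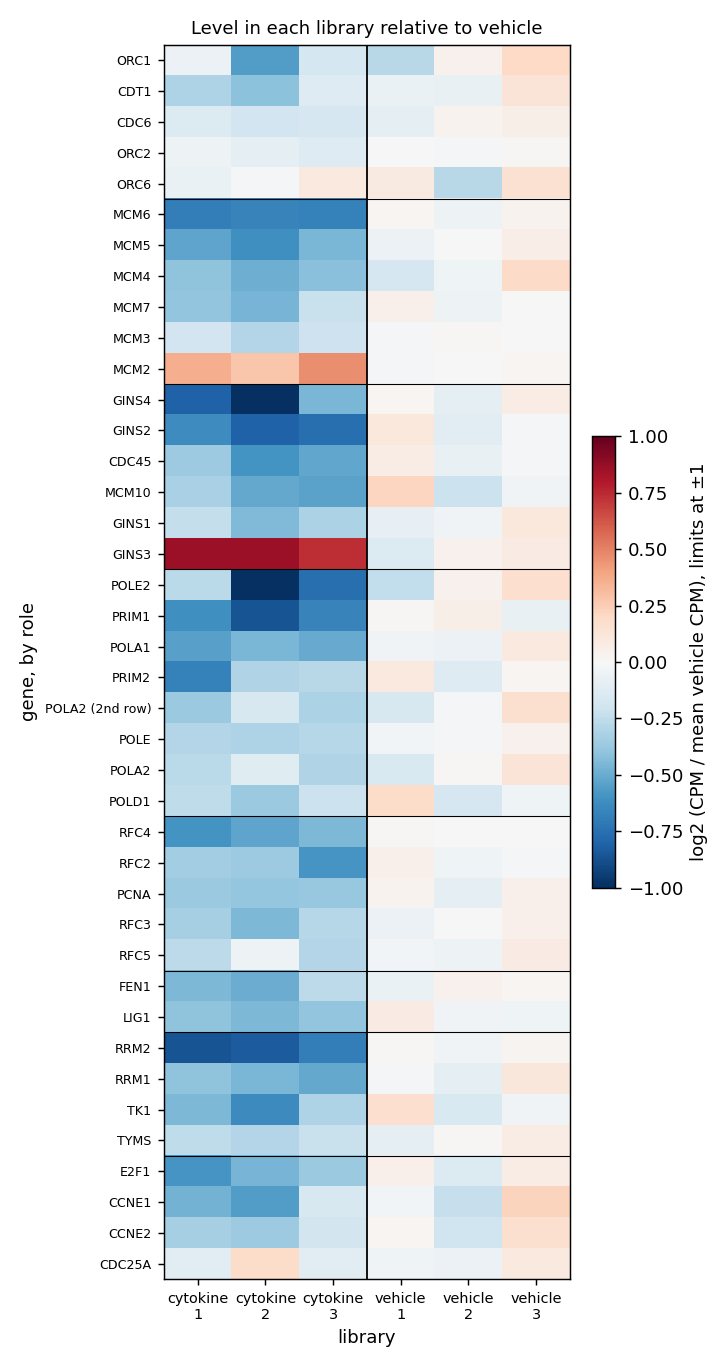
Colour gives log2 of each library's CPM over the mean vehicle CPM (limits at -1 and 1) for each member row (y axis, by role) in each library (x axis). MCM2 and GINS3 are red in all 3 cytokine libraries, most other rows are blue there, and CCND1 and CCND2 are left out for their low counts.

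The G1/S regulators were the least uniform role. E2F1, an activator of S-phase genes, had 37.6, 40.8 and 43.8 CPM in cytokine libraries, against 58.6, 51.4 and 59.5 CPM in vehicle libraries, with no overlap (log2 change -0.47, SE 0.07, adjusted p = 5.5e-07). The E-type cyclins, which activate CDK2 at S-phase entry, fell with overlapping groups: CCNE1 averaged 6.90 ± 1.05 CPM in cytokine cells and 9.02 ± 1.41 CPM in vehicle cells, and CCNE2 14.1 ± 0.951 CPM in cytokine cells and 17.2 ± 2.09 CPM in vehicle cells (SD, n = 3). Their log2 changes were -0.42 (SE 0.13, adjusted p = 0.0073) and -0.31 (SE 0.09, adjusted p = 0.0064). Both calls were lost without vehicle replicate 3 (adjusted p = 0.23 and 0.19) and with DESeq2 in place of edgeR (adjusted p = 0.071 and 0.063). CCNE2 shares 1629 exon bases with INTS8 on the opposite strand, which did not pass the test. CDC25A, the phosphatase that activates CDK2, had 13.4, 16.5 and 13.5 CPM in cytokine libraries, against 14.1, 13.9 and 15.6 CPM in vehicle libraries, and the groups overlapped (log2 change -0.03, SE 0.10, adjusted p = 0.80). With library size alone as the scaling it was called lower (log2 change -0.23, adjusted p = 0.036).

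The D-type cyclins among the members, CCND1 and CCND2, which pair with CDK4 and CDK6, had counts near the detection limit. CCND1 had 1.20, 1.96 and 1.16 CPM in cytokine libraries, against 0, 0 and 0.29 CPM in vehicle libraries, or 59 counts in all against 5. Every cytokine library was above every vehicle library. The ratio of summed counts, scaled for depth, was 9.73 with a 95% exact interval of 3.94 to 31.1 that covers counting error only, and edgeR's adjusted p was 8.6e-06. CCND1 shares 497 exon bases with LTO1 on the opposite strand, which rose slightly (log2 change 0.17) and averaged 24.8 CPM in cytokine cells and 22.2 CPM in vehicle cells. CCND2 had 28 counts in cytokine libraries and 14 in vehicle libraries, a ratio of 1.65 with an interval of 0.84 to 3.39. It shares 989 exon bases with AC008012.1 on the same strand, so reads of these genes may not be separable. AC008012.1 averaged 3.22 CPM in cytokine cells and 3.70 CPM in vehicle cells and did not pass the test. The D-type cyclin CCND3, outside the member list and named after its values were seen, was well above that limit and rose. It averaged 63.8 CPM in cytokine cells and 47.3 CPM in vehicle cells (log2 change 0.43, SE 0.05, adjusted p = 1.4e-07).

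Among 43 other replication genes, 3 rose, 20 fell and 20 did not pass, with a median log2 change of -0.19. The risen share was 6.98%, beside 28.3% of all genes tested, and the fallen share 46.5%, beside 28.8%. Under scaling by library size alone, 3 were higher and 31 lower, with a median of -0.39. TOP1, the topoisomerase that relieves twist ahead of the fork, averaged 334.3 ± 15.3 CPM in cytokine cells and 170.6 ± 4.50 CPM in vehicle cells (SD, n = 3; log2 change 0.97, SE 0.04, adjusted p = 3.9e-17). The histone chaperone NASP, named after its values were seen, also rose (log2 change 0.51). WDHD1, which couples the helicase to polymerase alpha, averaged 19.2 ± 0.756 CPM in cytokine cells and 32.3 ± 3.29 CPM in vehicle cells (log2 change -0.78, SE 0.08, adjusted p = 7.9e-10).

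Among 20 other nucleotide genes, 5 rose, 9 fell and 6 did not pass, with a median log2 change of -0.13. The risen share was below the 28.3% of all genes tested, and the fallen share was above the 28.8%. Under scaling by library size alone, 2 were higher and 13 lower, with a median of -0.33. SAMHD1, an interferon-inducible enzyme that degrades deoxynucleotides, averaged 609.4 ± 9.58 CPM in cytokine cells and 57.3 ± 2.14 CPM in vehicle cells (SD, n = 3), a log2 change of 3.41 (SE 0.05, adjusted p = 1.1e-29). GART of purine synthesis rose by 0.51 on the log2 scale. SHMT1, of one-carbon metabolism, and IMPDH2, of guanine nucleotide synthesis, fell by 0.93 and 0.68.

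Of 40 other G1/S regulators, 14 rose, 14 fell and 12 did not pass, with a median log2 change of 0.02. Under scaling by library size alone the split was 8 higher and 20 lower. The near-even split under the main scaling was shared by all genes tested, of which 28.3% rose and 28.8% fell. The difference of these regulators from all genes was not tested. CDKN1A, which encodes the CDK inhibitor p21, averaged 229.5 ± 9.52 CPM in cytokine cells and 134.3 ± 4.38 CPM in vehicle cells (SD, n = 3; log2 change 0.78, SE 0.05, adjusted p = 1.5e-14). CDKN2B, which encodes the CDK4 and CDK6 inhibitor p15, moved the other way, averaging 30.2 ± 0.795 CPM in cytokine cells and 89.9 ± 3.19 CPM in vehicle cells (log2 change -1.57, SE 0.06, adjusted p = 1.5e-19). CDK6 and E2F5 rose by 1.46 and 1.08, and MYCN fell by 1.57.

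Of 25 replication checkpoint and repair genes, 5 rose, 12 fell and 8 did not pass, with a median log2 change of -0.15. Here too the risen share was below the 28.3% of all genes tested, and the fallen share was above the 28.8%. Under scaling by library size alone, 3 were higher and 16 lower, with a median of -0.35. WEE1, the kinase that restrains CDK1 and CDK2, averaged 136.9 ± 5.78 CPM in cytokine cells and 58.1 ± 1.95 CPM in vehicle cells (SD, n = 3; log2 change 1.23, SE 0.05, adjusted p = 4.6e-18). The checkpoint kinase ATR rose by 0.59, while the helicase BLM fell by 0.61. Of 10 tested histone genes, 5 rose, 2 fell and 3 did not pass, with a median of 0.15 that was -0.05 under scaling by library size alone, where 3 rose and 4 fell. Under the main scaling their risen share was above the 28.3% of all genes tested, and their fallen share was below the 28.8%. H3-3B and H3C10 rose by 0.59 and 1.56, the H3C10 value resting on about 1 CPM, while H2AZ1 and H3-3A fell by 0.25 and 0.19.

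Mitosis genes moved with the replication genes. Of 30 G2/M and mitosis genes, 28 fell, 0 rose and 2 did not pass, CENPA and PTTG1. The fallen share was 93.3%, beside 28.8% of all genes tested. The median log2 change was -0.55, beside -0.38 for the replication members. MKI67, a marker of cycling cells, averaged 74.4 ± 7.44 CPM in cytokine cells and 111.5 ± 1.38 CPM in vehicle cells (SD, n = 3; log2 change -0.58, SE 0.06, adjusted p = 7.9e-10). KIF20A and CENPF, which act at the spindle, fell by 0.82 and 0.77. Both lists come from the same fit, and the difference between them was not tested.

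**Figure D5:**
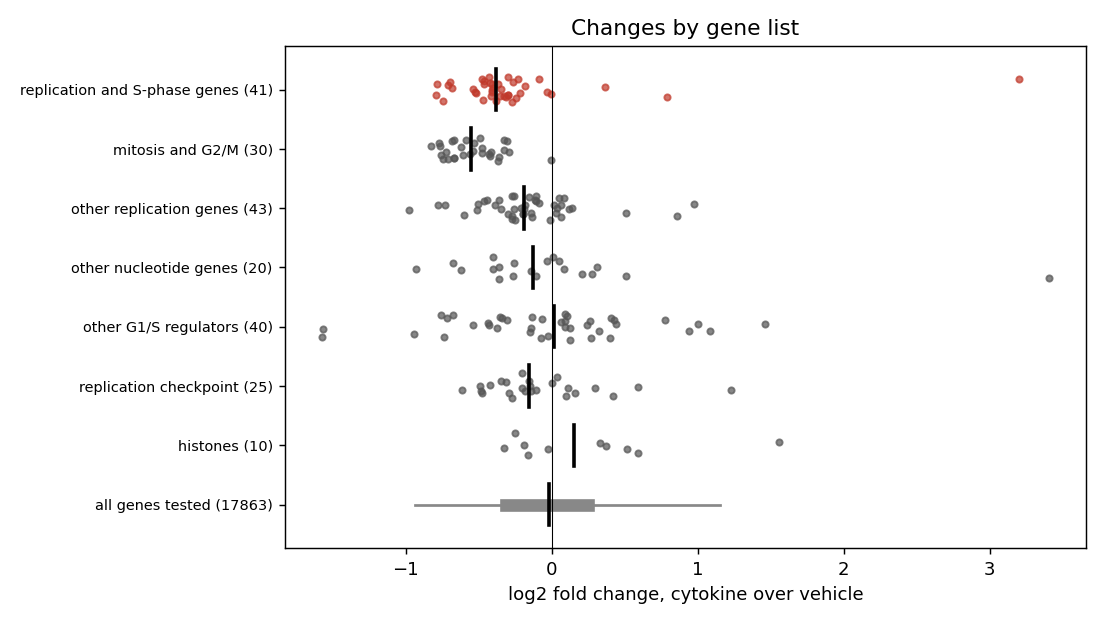
Log2 fold change of cytokine over vehicle (x axis) for the replication and S-phase genes (red points) and 6 other gene lists (grey points, number tested in brackets), with a bar at each median. The bottom row gives all genes tested, with a thick bar over the middle 50% and a thin line over the middle 90%; the replication and mitosis medians lie at -0.38 and -0.55.

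The authors' deposited table, made from the same counts, called 3 member rows higher and 34 lower, and all 37 rows called here had the same sign and a call there. The lists beside the members were chosen with earlier results of these data known, and their counts are descriptions with no test over the list.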

How the data were processed

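RNA of 6 EndoC-BH5 libraries was made into directional libraries with a NEBNext Ultra II kit, per the labels' protocols. The authors deposited estimated counts per gene that need not be whole, plus log2 fold changes, p-values and FDR per gene, per the file headers. Per the submitters' processing notes, the build was GRCh38 and the tools named, with no roles, included STAR 2.7.5a, HTSeq 0.12.4 and cutadapt 2.10. Columns named NT were taken as vehicle, since the other 3 carry the cytokine name.

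Estimated counts were rounded, filtered with filterByExpr, scaled with TMM and tested with edgeR 4.0.16 (R 4.3.3), by a robust quasi-likelihood fit with group as the single term and Benjamini-Hochberg adjustment at 0.05 over 17863 genes. The SE is the log2 change divided by the square root of F. Median within-group CV of member rows was 6.76% in cytokine and 6.07% in vehicle libraries. Exon lengths and overlaps came from GENCODE 29. The fit was tested on simulated data. Alternatives were other scalings, filters, DESeq2 1.42.0, a replicate block and leaving out each library.

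Members and lists were chosen with earlier results of these data known. All members are named, plus MKI67, CDKN1A and, per list, up to 2 risen and 2 fallen genes with the largest change and at least 1 CPM; 1 gene that this rule names is not reported here. The planned CCND1 to CCND2 balance was not made, as CCND1 had libraries at 0.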

Additional observations from a re-analysis of the deposited data

How the results depend on the processing

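Of 37 called member rows, 27 kept direction and call in all 13 alternatives other than a test against a fold of 1.5, 10 lost the call at least once and 0 changed sign. Member rows called lower numbered 25 with DESeq2, 30 at an adjusted p of 0.01 and 24 to 35 when 1 library was left out, the lowest without vehicle replicate 3, where 10 rows lost their call. The test against a fold of 1.5 (glmTreat) called 2344 genes in all and 1 member lower, RRM2, since most changes are smaller than that fold. Genes called higher numbered 2984 with library size alone and 1395 with glmTreat. The sign of ORC6, which did not pass, turned to 0.0061 with DESeq2 size factors, 0.0165 with DESeq2, 0.0051 with no filter and 0.0164 with the replicate block, and ranged from -0.116 to 0.138 when 1 library was left out. CDC25A, which did not pass, ranged from -0.118 to 0.045 when 1 library was left out. The cause of these turns was not tested. The log2 change of CCND1 ranged from 2.69 to 7.07, the highest without vehicle replicate 3, which held all its vehicle counts.

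The replicate numbers showed no sign of pairing: same-numbered deviations correlated at 0.0115, -0.0471 and -0.0499. With 3 libraries per group, such values do not establish that the libraries were unpaired. With the replicate block, 34 members were lower, 3 higher and 10098 genes called in all. Depth limits CCND1, CCND2 and POLE2 most.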
